A study of Mus musculus with 6 samples.

Results

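The genes described here encode 6 members of the STAT family of transcription factors: Stat2, Stat3, Stat4, Stat5a, Stat5b and Stat6. Their loci were read from 6 ChIP-seq peak lists of mouse bone marrow-derived macrophages (BMDMs), macrophages grown from marrow precursors, by taking every peak whose nearest transcription start site (TSS), as the authors annotated it, belonged to 1 of these genes. Of 14930 genes named by a peak in any list, these 6 carried 62 peaks, which merged into 28 of 60847 regions. The marrow came from wild-type mice aged 8 to 12 weeks, on the C57BL/6 background per the study's methods. Precursors in every group received L929 supernatant, a source of the macrophage growth factor M-CSF, over 6 days of differentiation. Control cells had no IL-4, and the others were exposed to 20 ng/ml of the cytokine for 1 h. After double cross-linking (DSG, then formaldehyde), C/EBPα, IRF8 or JUNB was precipitated with its antibody. Each factor had 1 control sample and 1 IL-4 sample, so the values below have no replicate error and no p-value was computed.

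STAT proteins wait in the cytoplasm until a cytokine receptor and its Janus kinases phosphorylate them. They then pair, enter the nucleus and bind short palindromic elements in the DNA. IL-4 signals mainly through STAT6, which drives the alternative activation program of macrophages. C/EBPα and IRF8 are myeloid lineage-determining factors, the latter often bound together with PU.1, and JUNB is a subunit of AP-1. The design addresses where these factors sit on macrophage chromatin before and soon after the IL-4 signal, and the STAT genes are the loci that encode the transducers of such signals.

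The C/EBPα lists held 24486 control and 24612 IL-4 peaks, the IRF8 lists 37525 and 42076, and the JUNB lists 3940 and 2325. The deposited peak score, whose unit is not stated in the sources used here and which was read as a measure of confidence of the peak caller, had medians between 6.21 and 11.22 in the 6 lists. Such a score grows with sequencing depth, and depth was unknown. As a check of the cell label, 6 of 8 macrophage marker genes had a peak within 10 kb of the TSS in each C/EBPα and IRF8 list (Spi1 and Mertk did not), and 4 and 3 of 8 in the JUNB lists. The B cell, T cell and neutrophil lists had 0 to 2 of 4 markers and the erythroid list 0 of 4. These counts report binding and not expression.

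By assignment to the nearest TSS, C/EBPα peaks were found at 4 of the 6 STAT genes, IRF8 peaks at all 6 and JUNB peaks at none. C/EBPα had 12 peaks at STAT genes in control and 12 after IL-4, or 0.049% and 0.0488% of the list (Wilson 95% intervals 0.028 to 0.0856% and 0.0279 to 0.0852%, counting error only). IRF8 had 16 peaks in control and 22 after IL-4, or 0.0426% (0.0262 to 0.0693%) and 0.0523% (0.0345 to 0.0792%). The intervals overlapped throughout. JUNB had 0 of 3940 and 0 of 2325 peaks, which allows shares of up to 0.0761% and 0.129%. Both limits lie above the shares of the other factors, so fewer JUNB peaks at these genes could not be detected at this list size.

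Stat5b carried the most peaks, and it did so for both factors. It had 6 C/EBPα peaks in control and 5 after IL-4, and 6 IRF8 peaks in each condition. Only 10.2% of genes with a C/EBPα control peak and 14.0% of genes with an IRF8 control peak had at least as many, the median gene having 2. Stat5b is a long gene at 70.0 kb, and peak number was not corrected for the length of a locus. Stat4, at 120.0 kb, had 3 C/EBPα peaks in each condition. Stat2 (22.3 kb) and Stat5a (25.8 kb) had no C/EBPα peak in either condition.

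**Figure D1:**
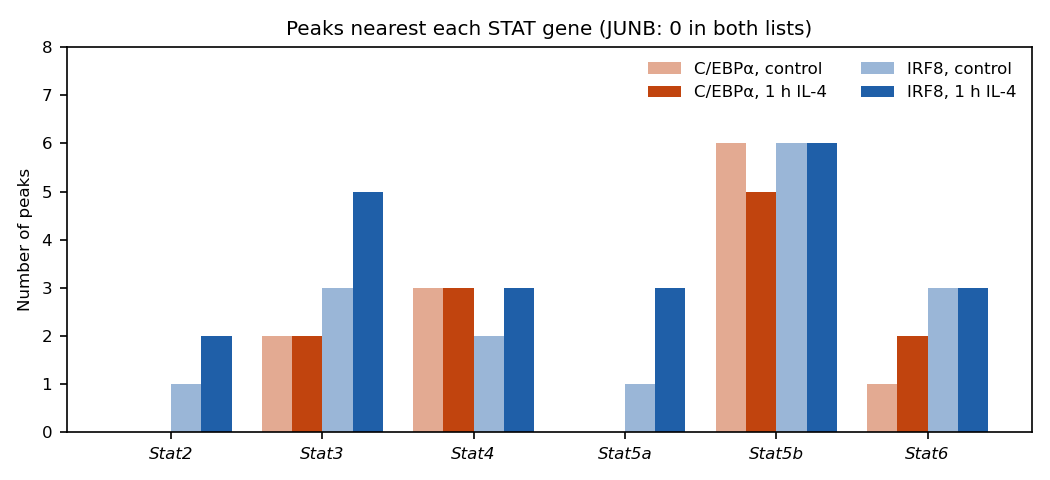
Number of peaks (vertical axis) nearest each STAT gene (horizontal axis) in the C/EBPα and IRF8 lists, 1 sample per bar. IRF8 gained peak number after IL-4 at Stat2 (1 to 2), Stat3 (3 to 5), Stat4 (2 to 3) and Stat5a (1 to 3), while Stat5b stayed at 6, Stat6 stayed at 3, and Stat2 and Stat5a had no C/EBPα peak.

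Introns were the main location of peaks at STAT genes, and also the largest class in the whole C/EBPα and IRF8 lists. They held 8 of 12 C/EBPα control peaks, 7 of 12 C/EBPα IL-4 peaks, 11 of 16 IRF8 control peaks and 16 of 22 IRF8 IL-4 peaks, against 46.2, 45.5, 45.6 and 44.4% of all peaks in the same lists. Intergenic peaks were 43.0, 43.0, 43.0 and 42.0% of those lists. Promoters held 1, 2, 2 and 3 peaks in that order, against 6.88, 7.35, 7.25 and 9.16% of all peaks. No interval was computed for these small counts, so a difference from the lists cannot be read from them. The promoter peaks belonged to Stat2 (IRF8), Stat5b (C/EBPα) and Stat6 (both factors). No promoter peak was called for Stat3, Stat4 or Stat5a.

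Some of the genes are neighbours. Stat5b, Stat5a and Stat3 lie within 158.8 kb of chromosome 11, where Stat5b and Stat5a start 8.6 kb apart and point away from each other, and where Stat5a and Stat3 run towards each other and share 72 bp at their ends. Stat6 and Stat2 are on chromosome 10, with 609.6 kb between them, and Stat4 is on chromosome 1. A peak inside one STAT gene can therefore be assigned to the next, and 2 of the 4 peaks assigned to Stat5a lay inside the body of Stat3.

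**Figure D2:**
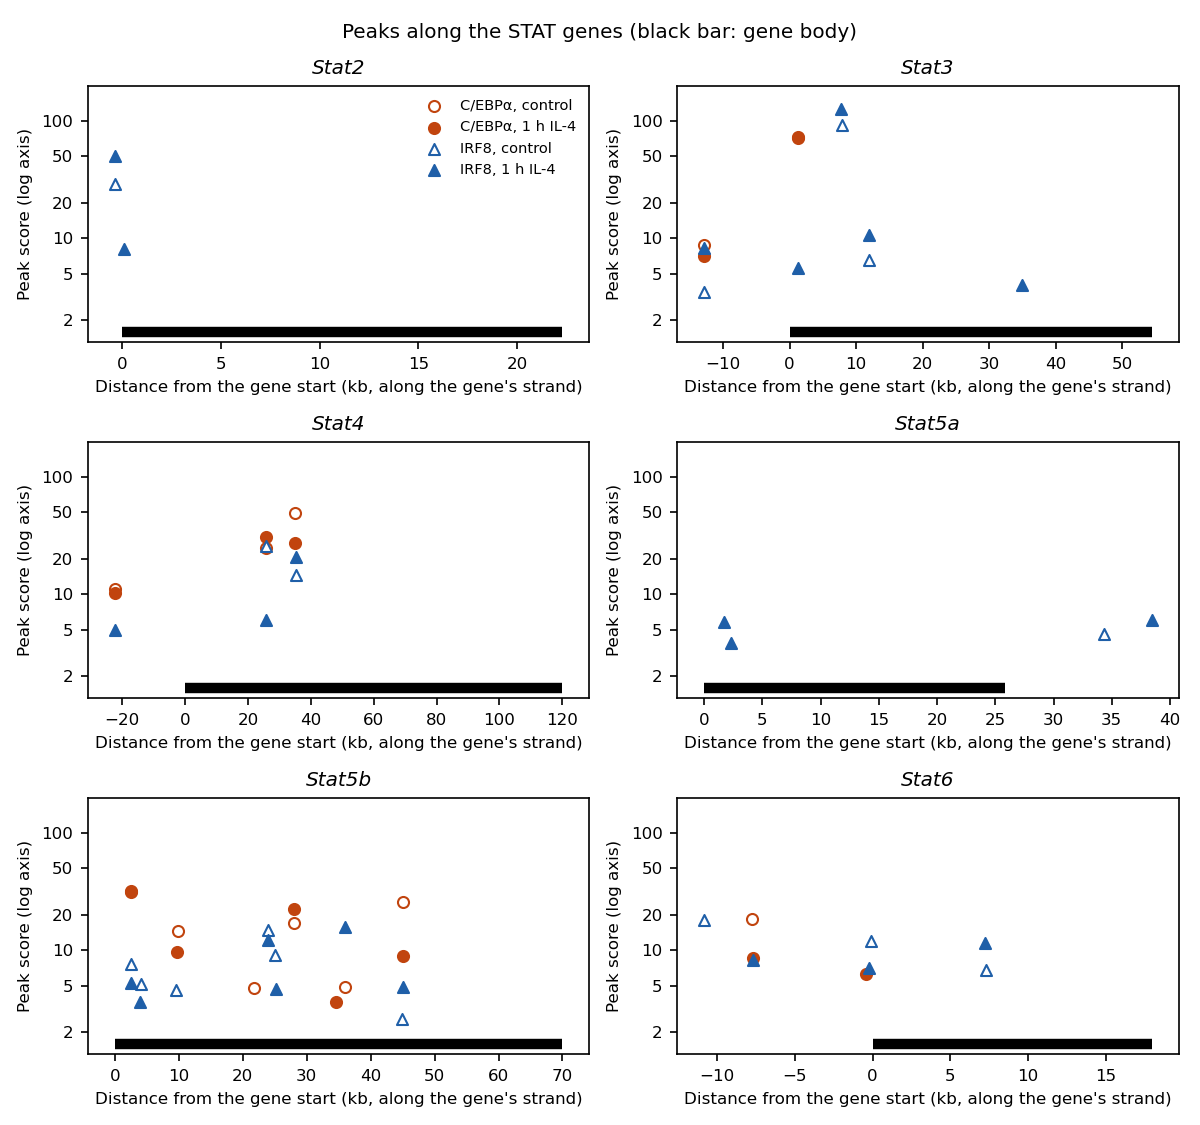
Peaks of each STAT gene by position (horizontal axis, kb from the gene start along its strand, black bar for the gene body) and peak score (vertical log axis), with circles for C/EBPα, triangles for IRF8, open symbols for control and filled symbols for 1 h IL-4. The highest scores of the family were at Stat3, with 126.91 for IRF8 after IL-4 and 72.93 for C/EBPα in control, both within the first intron, while every Stat5a peak scored 6.04 or less.

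Stat2, the partner of IRF9 in the interferon-stimulated factor ISGF3, was bound only by IRF8. Its promoter peak, centred 389 bp upstream of the TSS, scored 29.08 in control, and the IL-4 peak 390 bp upstream scored 50.71, 1.74-fold higher. A separate IRF8 peak 56 bp downstream of the TSS was called only after IL-4, with a score of 8.15. The main promoter peak held matches to the IRF motif and to the ETS-IRF composite, which are shown because they lie under the highest promoter score among the STAT genes. The window overlaps the last exon of the neighbouring gene Apof in RefSeq and is limited to 30 bases around the match. As in all sequences below, bases are those of the plus strand of the RefSeq mouse genome (GRCm38, the assembly mm10 names), and capitals mark motif matches on either strand.
Stat2 promoter, chr10:128270267-128270296: gcaccctggtTTCAGTTTCCTTTCCctaga
In this stretch the capitals cover GAAANNGAA (IRF) and GGAANNGAA (ETS-IRF) on the minus strand, which overlap.

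Stat3, the transducer of IL-6 and IL-10 signals, carried the strongest peaks of the family for both factors. The IRF8 peak in intron 1, 7807 bp from the TSS in control and 7762 bp after IL-4, scored 93.58 and 126.91, a 1.36-fold rise in score, and ranked 1663 of 37525 and 1035 of 42076 peaks. The C/EBPα peak in the same intron, 1157 bp from the TSS, scored 72.93 in control and 71.81 after IL-4 (0.985-fold) and ranked 1077 of 24486 and 1297 of 24612. By its highest peak, Stat3 ranked 968 of 9327 genes for C/EBPα and 1449 of 12167 for IRF8 in control, and 1147 of 9319 and 937 of 13302 after IL-4. The 2 strongest sites were distinct, since no C/EBPα peak overlapped the IRF8 site and the C/EBPα site had an IRF8 peak only after IL-4, with a score of 5.57. Their sequences, 200 bases around each peak centre, are given to set the strongest IRF8 site beside the strongest C/EBPα site.
Stat3 intron 1, IRF8 site, chr11:100931650-100931849: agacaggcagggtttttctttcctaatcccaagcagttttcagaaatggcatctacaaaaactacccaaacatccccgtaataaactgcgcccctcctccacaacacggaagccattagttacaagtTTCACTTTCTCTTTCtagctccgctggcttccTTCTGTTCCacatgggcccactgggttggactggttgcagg
Stat3 intron 1, C/EBPα site, chr11:100938255-100938454: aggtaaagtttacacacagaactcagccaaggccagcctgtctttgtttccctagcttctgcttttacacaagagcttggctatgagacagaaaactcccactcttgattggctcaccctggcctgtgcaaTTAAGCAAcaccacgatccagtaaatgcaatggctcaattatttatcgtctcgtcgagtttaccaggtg
In the IRF8 site the first run of capitals is a pair of overlapping IRF matches and the second an ETS-IRF match. In the C/EBPα site the capitals are a C/EBP match, TTGCNNAA on the minus strand.

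The weaker Stat3 peaks moved upward for IRF8. A further intron 1 peak, 11958 bp from the TSS in control and 11902 bp after IL-4, scored 6.58 in control and 10.67 after IL-4 (1.62-fold). An intergenic region 12840 bp upstream had an IRF8 score of 3.49 in control and 8.26 after IL-4, which at 2.36-fold was the sole paired IRF8 peak of the family to pass 2-fold upward. C/EBPα at the same region scored 8.74 and then 7.07 (0.809-fold). An IRF8 peak in intron 8, 34862 bp from the TSS and within a B1F SINE repeat, was called only after IL-4 with a score of 3.97. All 3 paired IRF8 peaks of Stat3 thus scored higher after IL-4, beside 55.4% of all IRF8 pairs. Both paired C/EBPα peaks scored lower, the intron 1 peak barely so at 0.985-fold, while 49.7% of all C/EBPα pairs scored higher. Such small counts cannot set Stat3 apart from the lists.

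Stat4, best known for IL-12 signalling in lymphocytes, had 3 regions, and C/EBPα occupied each of them in both conditions. The site in intron 2 (of transcript NM_011487) stood out for IRF8. There the IRF8 score was 25.74 in control and 5.99 after IL-4, 0.233-fold or −2.1 on the log2 scale, the steepest fall of any paired peak at these genes. C/EBPα at the same site scored 24.97 and then 30.94 (1.24-fold), and the peak centres of the factors were 8 bp apart in control and 5 bp apart after IL-4. In intron 3 the order was turned around, as C/EBPα scored 49.06 and then 27.45 (0.559-fold) while IRF8 scored 14.49 and then 20.89 (1.44-fold). The distal region, 43.4 kb from the nearest annotated TSS and about 22.3 kb upstream of the gene start in GENCODE, lay in an Lx8 LINE repeat and had C/EBPα scores of 11.06 and 10.2, with an IRF8 peak of 4.99 only after IL-4.

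The intron 2 sequence of Stat4 is shown because it carried the largest fold change in score among paired peaks at these genes.
Stat4 intron 2, chr1:52012861-52013060: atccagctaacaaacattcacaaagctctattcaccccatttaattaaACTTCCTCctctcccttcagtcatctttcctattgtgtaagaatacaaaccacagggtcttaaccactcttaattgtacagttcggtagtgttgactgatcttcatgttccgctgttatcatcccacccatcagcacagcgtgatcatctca
Its capitals are a match to the PU.1 core GAGGAAGT on the minus strand, and neither the IRF nor the ETS-IRF letters were in this window.

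Stat5a, a transducer of prolactin, GM-CSF and IL-3 family signals, had only weak IRF8 peaks, and none was called in both conditions. After IL-4, peaks were called at 552 bp and 1179 bp from the TSS with scores of 5.76 and 3.87. Another IL-4 peak, 37304 bp away and inside intron 14 of Stat3, scored 6.04. The single control peak, 33196 bp away and in exon 20 of Stat3, scored 4.59. All 4 were in the lower part of their lists, from the top 68.4% to the top 90.4% by rank. The region at 552 bp was the only one of the 28 with both a STAT-type element (TTC and GAA with 3 or 4 bases between) and an IRF match in the 200 bp around its centre, and it is shown for that reason.
Stat5a intron 2, chr11:100860945-100861136: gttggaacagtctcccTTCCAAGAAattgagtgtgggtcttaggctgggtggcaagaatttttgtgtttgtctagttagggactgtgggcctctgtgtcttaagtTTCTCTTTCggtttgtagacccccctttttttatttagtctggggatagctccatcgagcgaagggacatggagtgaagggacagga
The first run of capitals is the STAT-type element, here with 3 bases between, and the second is the IRF match on the minus strand.

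Stat5b, the close paralog of Stat5a and a transducer of growth hormone signals, had 10 regions, the most of any member. Its promoter, at a start site inside the long first intron of the longer transcript, held a C/EBPα peak of 17.28 in control and 22.67 after IL-4 (1.31-fold), with no IRF8 peak. The region with the highest C/EBPα scores, 2.4 kb from the upstream TSS, was steady for that factor at 31.8 and 32.14 (1.01-fold). Its IRF8 peaks scored 7.62 and 5.29 (0.694-fold). In intron 2, 16.9 kb from the nearest TSS, C/EBPα scored 25.98 in control and 8.97 after IL-4, 0.346-fold or −1.53 on the log2 scale, and IRF8 scored 2.59 and 4.86 (1.88-fold). This was the larger of the 2 falls of C/EBPα past 2-fold at STAT genes.

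A region in intron 1, 7.8 kb from the nearest TSS, exchanged one factor for the other in the peak lists. C/EBPα was called only in control, with a score of 4.84, and IRF8 only after IL-4, with a score of 15.91. The IRF8 peak was the highest-scoring of all IL-4-only peaks at STAT genes, and this was the sole region of the 28 in which both factors were gained or lost. The control C/EBPα score was below the list median of 11.195. The changing Stat5b sites had these sequences.
Stat5b intron 2, chr11:100805609-100805808: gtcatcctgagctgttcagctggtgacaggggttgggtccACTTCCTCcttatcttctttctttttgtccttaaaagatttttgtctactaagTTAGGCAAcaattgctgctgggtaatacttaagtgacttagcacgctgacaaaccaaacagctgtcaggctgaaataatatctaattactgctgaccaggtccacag
Stat5b intron 1, chr11:100814628-100814827: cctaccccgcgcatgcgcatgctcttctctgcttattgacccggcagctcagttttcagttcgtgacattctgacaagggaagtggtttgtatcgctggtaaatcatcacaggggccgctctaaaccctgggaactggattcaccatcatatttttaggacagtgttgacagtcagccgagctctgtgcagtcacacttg
The intron 2 site held a PU.1 core match followed by a C/EBP match, both on the minus strand, and the intron 1 site held none of the motifs searched.

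Most of the other Stat5b regions were bound by 1 factor. IRF8 peaks 3.1 kb and 4.2 kb upstream of the inner TSS scored 9.07 and 14.84 in control and 4.69 and 12.19 after IL-4 (0.517-fold and 0.821-fold). The 14.84 was the highest IRF8 control score at Stat5b. An IRF8 peak 3845 bp from the upstream TSS scored 5.18 and then 3.59 (0.693-fold). C/EBPα had a control-only peak of 4.79 in an L1MB2 LINE repeat and an IL-4-only peak of 3.63. Near 9.6 kb, C/EBPα scored 14.53 and then 9.71 (0.669-fold), and IRF8 had a control-only peak of 4.61. For IRF8, 4 of the 5 paired Stat5b peaks scored lower after IL-4, whereas at Stat3 none of 3 did. Over the whole list 55.4% of IRF8 pairs scored higher, and a difference between the 2 genes was not tested.

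Stat6, the transducer of IL-4 itself, had 4 regions. At its promoter the IRF8 peak scored 12.0 in control and 7.13 after IL-4 (0.594-fold), and a C/EBPα peak of 6.33 centred 406 bp upstream of the TSS was called only after IL-4. A region 7.7 kb upstream, in an MTC long terminal repeat, had a C/EBPα score of 18.59 in control and 8.56 after IL-4 (0.46-fold) and an IRF8 peak of 8.31 only after IL-4. In intron 4, within a MERVL repeat 7242 bp from the TSS, IRF8 scored 6.85 and then 11.66 (1.7-fold). At the upstream repeat the factors thus moved in opposite directions, with IRF8 called in a single condition. At the promoter the C/EBPα peak did not overlap the IRF8 control peak, which was centred 96 bp upstream of the TSS. It overlapped only the IRF8 peak after IL-4, which was wider (550 bp against 235 bp in control). The promoter stretch under the C/EBPα peak called after IL-4 is shown because this gene encodes the factor that IL-4 activates.
Stat6 promoter, C/EBPα site, chr10:127642481-127642680: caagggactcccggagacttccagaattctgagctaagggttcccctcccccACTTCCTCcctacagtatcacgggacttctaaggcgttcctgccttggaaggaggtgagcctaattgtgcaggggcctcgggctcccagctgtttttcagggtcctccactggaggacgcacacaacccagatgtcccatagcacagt
Its capitals are a PU.1 core match on the minus strand, and no STAT-type element was found in it.

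The remaining Stat6 region, 10851 bp upstream, lies almost midway to the start of Lrp1, which encodes an endocytic receptor. Only its IRF8 control peak, with a score of 17.99, was assigned to Stat6. The overlapping IRF8 peak after IL-4 scored 20.13 and was assigned to Lrp1, as were the C/EBPα peaks of 17.27 in control and 19.93 after IL-4 and a JUNB control peak of 6.73. It was the only region of the 28 with all 3 factors, and in control only. This is 1 of 22 regions with a peak in control, or 4.55%, against 5.38% of all regions with a control peak. After IL-4 the counts were 0 of 26 and 3.08%.

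Apart from that region, no JUNB peak overlapped a STAT-gene region. The nearest JUNB peak to the gene body was 34.9 kb away for Stat3, 52.4 kb for Stat4, 59.2 kb for Stat5b, 89.3 kb for Stat5a and 486.6 kb for Stat2 in control, against 10.8 kb for Stat6. After IL-4, in a list with fewer peaks, the distances ranged from 46.1 kb (Stat6) to 197.5 kb (Stat4).

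Across the family, most peaks were called in both conditions. For C/EBPα, 10 of the 12 control peaks overlapped an IL-4 peak by at least 1 bp (83.3%, interval 55.2 to 95.3%), against 78.6% of all control peaks. The other 2 were control-only, beside 21.4% of all C/EBPα control peaks, and 2 of 12 IL-4 peaks were IL-4-only, beside 22.0% of the list. For IRF8, 14 of 16 control peaks were shared (87.5%, 64.0 to 96.5%), again against 78.6%, and 2 were control-only, beside 21.4% of the list. The intervals include the shares of the whole lists.

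IRF8 peaks called only after IL-4 were found at every STAT gene. They made up 9 of the 22 IL-4 peaks (40.9%), beside 30.4% of all IRF8 IL-4 peaks. No interval was computed for this small count, so a difference from the list cannot be read from it. By assignment, 3 were at Stat5a, 2 at Stat3 and 1 at each of the others, but the Stat5a peak at 37304 bp lay inside Stat3. Most of the 9 peaks were weak. Their scores ran from 3.87 to 15.91 with a median of 5.76, while all IL-4-only peaks of the list had a median of 4.99 and the 13 shared IL-4 peaks at STAT genes had a median of 8.26. The IRF8 IL-4 list was also the larger of the pair, and when both lists were held to the same number of top peaks the count was 8 of 20.

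The scores of paired C/EBPα peaks were more often lower after IL-4, within counting error of the list. Of 10 C/EBPα pairs, 3 scored higher after IL-4 and 7 lower. The share scoring higher was 30% (10.8 to 60.3%) against 49.7% of all 19111 pairs, and the median log2 ratio was −0.21 (0.864-fold) against −0.0038 over all pairs. With a gene taken as its body and 10 kb around it, the median was −0.058 and the share 40%. At least 2-fold, 0 pairs were higher, beside 7.72% of all pairs, and 2 were lower, at Stat5b and Stat6, beside 6.56%. The interval of the share includes that of the list.

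Of 13 IRF8 pairs with both peaks assigned to STAT genes, 7 scored higher and 6 lower, a share of 53.8% (29.1 to 76.8%) against 55.4% of all 29110 pairs. The median log2 ratio was 0.44 (1.36-fold) against 0.083 over all pairs. One pair was at least 2-fold higher, at Stat3, beside 11.3% of all pairs, and 1 was at least 2-fold lower, at Stat4, beside 7.96%. The median fell on a single Stat3 pair, and the next lower pair was at −0.284.

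**Figure D3:**
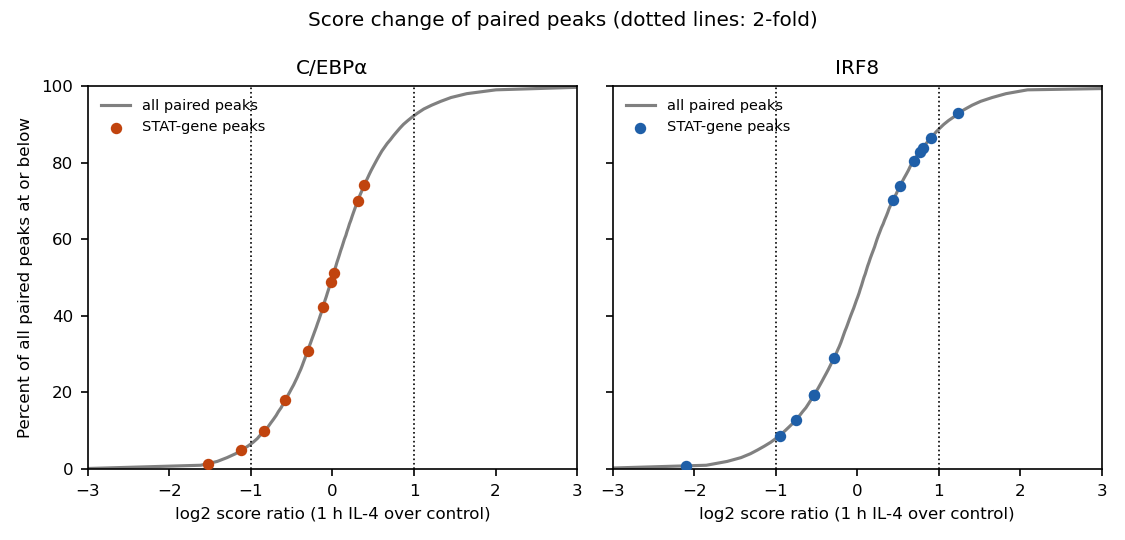
Cumulative percent (vertical axis) of all paired peaks by the log2 ratio of the IL-4 score over the control score (horizontal axis) for C/EBPα (19111 pairs, left) and IRF8 (29110 pairs, right), with the 10 and 13 pairs at STAT genes as points on the curve and dotted lines at a 2-fold change. Among the C/EBPα points 2 lie below the lower line and 0 above the upper line, and among the IRF8 points 1 lies beyond each line.

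**Figure D4:**
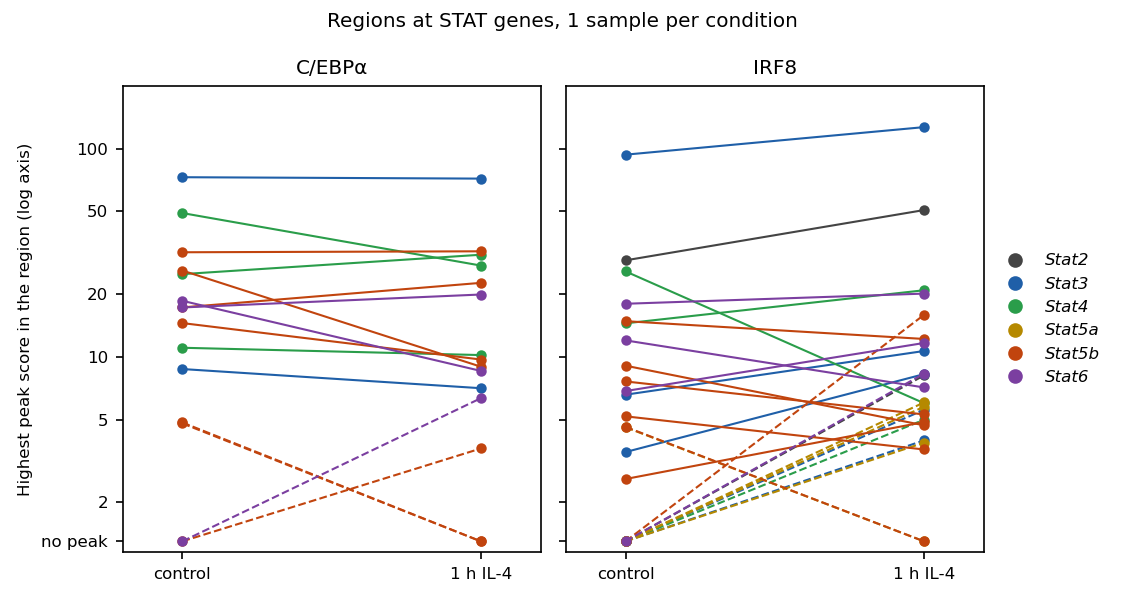
Highest peak score (vertical log axis) of each region at a STAT gene in control and after 1 h of IL-4 (horizontal axis), coloured by gene, for C/EBPα (left) and IRF8 (right), with dashed lines to "no peak" where 1 condition had none. The 9 dashed IRF8 lines that rise end at scores between 3.87 and 15.91, the Stat3 lines hold the top of both panels, and the Stat6 region shared with Lrp1 is drawn with the peaks assigned to either gene.

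C/EBPα and IRF8 met at some of the same sites. The counts are small and no interval was computed, so a difference from all regions cannot be read from these shares. In control, 7 of 13 C/EBPα regions at STAT genes also had an IRF8 peak (53.8%), against 58.7% over all regions, and after IL-4 10 of 13 did (76.9%), against 60.9%. Of the IRF8 regions, 43.8% and then 43.5% had C/EBPα, against 38.3 and 35.5%. Both factors were present in both conditions at 6 of the 28 regions (21.4%), against 17.8% of all regions: both intronic Stat4 sites, Stat5b at 16.9 kb and 2.4 kb, Stat3 at −12.8 kb and the Stat6 region near Lrp1. Where peaks of both factors assigned to the same STAT gene coincided, their centres were 8 to 190 bp apart in control (median 63, 6 regions) and 5 to 155 bp apart after IL-4 (median 24, 9 regions).

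None of the motifs searched was found at STAT-gene regions at a share outside counting error of the share over all regions. In the 200 bp around the region centre, a STAT-type element was in 3 of 28 regions (10.7% against 14.4% of all regions), at Stat5a (552 bp and 37304 bp) and Stat5b (3845 bp), all weak IRF8 sites. An IRF match was in 3 (10.7% against 13.4%), an ETS-IRF match in 2 (7.14% against 16.5%), a C/EBP match in 4 (14.3% against 18.4%), a PU.1 core in 3 (10.7% against 10.6%) and an AP-1 match, TGANTCA, in 1 (3.57% against 14.2%). Both strands were searched and motifs could overlap, so GAAANNGAA and GGAANNGAA can share bases. The ETS-IRF match printed for the Stat2 promoter lay just outside the window of the merged region and is not in this count. In windows of 300 bp a STAT-type element was in 7 regions (25.0% against 20.2%). In the 9 RefSeq promoters of these genes, windows of 300 bases at each start, a STAT-type element was found for Stat2 only, beside 14.6% of 32851 promoters, and IRF and ETS-IRF matches for Stat2 and Stat4, beside 8.56 and 8.24%.

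Scores summed over the peaks of a gene set the members in different orders for the factors. For C/EBPα the control sums were 99.22 for Stat5b, 85.09 for Stat4, 81.67 for Stat3 and 18.59 for Stat6, and after IL-4 they were 77.12, 68.59, 78.88 and 14.89, so that Stat3 moved to the top. For IRF8 the control sums were 103.65 for Stat3, 43.91 for Stat5b, 40.23 for Stat4, 36.84 for Stat6, 29.08 for Stat2 and 4.59 for Stat5a. After IL-4 they were 155.38 for Stat3, 58.86 for Stat2, 46.53 for Stat5b, 31.87 for Stat4, 27.1 for Stat6 and 15.67 for Stat5a. The Stat6 sums depend on the region shared with Lrp1, of which only the IRF8 control peak is counted here. With all peaks of that region counted, the Stat6 sums were 35.86 and 34.82 for C/EBPα and 36.84 and 47.23 for IRF8, in control and after IL-4, so that its IRF8 sum rose and stood above those of Stat5b and Stat4 after IL-4. With no replicates, it cannot be said which neighbours in these orders differ. By Euclidean distance of log2(1 + summed score) over the 6 lists, the genes nearest to Stat3 were Themis2 (0.148) and Cd300lf (0.251), those nearest to Stat4 were Orai1 (0.152) and Naa60 (0.176), and those nearest to Stat5b were Khdc3 (0.25) and Fkbpl (0.264). For Stat6 they were Morc2a (0.232) and Gpx7 (0.246), and neither was among the nearest 2 when all peaks of the region shared with Lrp1 were counted.

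The other genes of the pathway, a list of 27 receptors, kinases and inhibitors, give the setting of the STAT genes. C/EBPα peaks were at 23 of them in each condition (22 in both), with 96 peaks in control and 111 after IL-4, of which 29 were IL-4-only (26.1%, beside 22.0% of the list) and 14 of the control peaks control-only (14.6%, beside 21.4%). IRF8 peaks were at 25 and 24 genes, with 136 and 147 peaks, of which 47 were IL-4-only (32.0%, beside 30.4%) and 30 of the control peaks control-only (22.1%, beside 21.4%), shares close to the list. Of the C/EBPα pairs, 40 of 81 scored higher after IL-4 (49.4%, beside 49.7% of all pairs), 9 at least 2-fold higher (11.1%, beside 7.72%) and 5 at least 2-fold lower (6.17%, beside 6.56%). Of 100 IRF8 pairs, 63 scored higher (beside 55.4%), 16 at least 2-fold higher (beside 11.3%) and 5 at least 2-fold lower (beside 7.96%). The genes with the most IL-4-only peaks, named after their values were seen, were Socs1, a feedback inhibitor of Janus kinases, with 9 of 14 IRF8 peaks, and Il6st, the shared signal receptor of the IL-6 family, with 5 of 13 C/EBPα peaks. Cish, another inhibitor of the same family as Socs1, had 1 C/EBPα peak in control and 5 after IL-4. Other genes went the opposite way. The most control-only peaks were those of IRF8 at Il13ra1 (6 of 12) and Pias1 (5 of 12), also named after viewing. Il13ra1 had 12 IRF8 peaks in control and 5 after IL-4, and Pias1 had 12 and 7. JUNB had 11 peaks at 10 of these genes in control and 8 at 6 after IL-4. No JUNB peak was assigned to a STAT gene, though a control peak of 6.73 in the Stat6 region shared with Lrp1 was assigned to Lrp1.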

How the data were processed

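ChIP-seq of C/EBPα, IRF8 and JUNB was analysed from 6 deposited peak lists, 1 per factor and condition. According to the study's methods and the submitters' processing notes, the authors aligned reads with BWA (0.7.10) to mm10, used SAMtools (0.1.19), called peaks per sample with MACS2 (2.0.10) at a q-value limit of 0.01, removed blacklisted regions and annotated peaks with HOMER (4.2). The unit of the deposited score is not stated. If it were −log10 of a q-value, that limit would be a score of 2, and 1 to 48 peaks per list scored below it. Distances from the TSS (bp) and annotations are those the authors deposited. Depth per sample was not in the files used here. The labels name a pair of library kits without assigning them to samples, so kit and condition cannot be told apart. Intervals and limits from a count of 0 (3 counts) cover counting error only.

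Peaks of a factor that had 1 bp or more in common counted as shared, and pairs were formed in order of decreasing overlap, each peak once. Touching peaks of any of the 6 lists were merged into regions, scored per list by the top peak. Shares carry Wilson 95% intervals. Motifs were searched in 200 bp at region centres. No test was run, since each group had 1 sample. Gene bodies were from GENCODE vM21. All 9 self-test checks on simulated data passed. Python 3.11.15, pandas 2.3.3, numpy 2.4.6, scipy 1.17.1, pysam 0.24.0 and matplotlib 3.10.9 were used, with overlaps checked by bedtools 2.31.1.

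Members, gene lists and rules were chosen with earlier results of these data known. Named in full were promoter peaks, the top region of each gene and factor, regions gained or lost by 2 factors and the 3 highest IL-4-only and control-only peaks. The rule for sequences (all 3 factors present, in a promoter or with a STAT-type element) selected none, so those printed were chosen after values were seen. Most-alike genes were the 2 nearest for each member with peaks in at least 4 lists. Alternatives changed the overlap, the score minimum, list size by rank matching, the assignment to genes, peak width, merging and the motif window.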

Additional observations from a re-analysis of the deposited data

Results flagged for a closer look

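At 2 regions C/EBPα and IRF8 moved in opposite directions, each by at least 2-fold in score or by a peak called in a single condition, with 1 sample per group, and the difference between the factors was not tested. In the first intron of Stat5b, 7843 bp from the nearest TSS, C/EBPα had a control peak of 4.84 and none after IL-4, and IRF8 had no control peak and an IL-4 peak of 15.91. At the repeat 7704 bp upstream of Stat6, the C/EBPα score went from 18.59 in control to 8.56 after IL-4, and IRF8, with no control peak, had an IL-4 peak of 8.31. The score of a peak depends on depth, which was unknown for all samples, and its part in these differences was not tested.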

How the results depend on the processing

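Of the recomputed values, 92 met the rule set for a like result, 8 moved and 1 reversed. Shares were judged by the wide Wilson interval of the main value, counts by a fixed fold and median ratios by sign alone. Some of the 92 could not change, since all assigned peaks lay within 100 kb of the TSS and JUNB counts of 0 cannot fall. The reversed value, from an alternative chosen after seeing the data, was the Stat6 change in summed IRF8 score. It was −9.74 by assigned peaks and 10.39 with every peak of its regions. With peaks scoring at least 5 only, C/EBPα kept 1 peak found after IL-4 alone, 0 found in control alone and an overlap share of 100%, fewer peaks being compared. The count of IRF8 peaks called only after IL-4 ran from 7 to 10 over the alternatives. The control count of regions with all 3 factors fell to 0 both with lists held to equal size by rank and with genes taken as the body and 10 kb around it, and the latter raised IRF8 control-only peaks to 4 and moved the C/EBPα median log2 ratio from −0.211 to −0.0578. With 100 bp windows, IRF matches were in 3.57% and ETS-IRF matches in 0.0% of regions. No paired analysis was possible because each group had 1 sample, and no replicate could be left out. Depth, background and library kit per sample were unknown, and their part in the differences between lists was not tested.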
